A study of Mus musculus with 5 samples.

Results

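A set of 8 genes of inherited parkinsonism, alpha-synuclein not among them, was followed in ribosome-bound RNA from the midbrain of mice with and without a deletion of Esrrg, which encodes the nuclear receptor ERRγ. The members were fixed by name as Pink1, Park7, Lrrk2, Vps35, Atp13a2, Uchl1, Synj1 and Dnajc6. Each symbol matched 1 row of the count table, which gave 8 of 53700 gene IDs, and all 8 were among the 15724 genes that received an adjusted p. RNA was purified by BAC-TRAP, in which an antibody pulls down ribosomes that carry an EGFP-tagged L10a protein. All mice were C57BL/6, aged 4 months, carried the Cre-dependent L10a transgene and had received AAV:THCre in the midbrain 1 month earlier, so that a tyrosine hydroxylase promoter drove Cre and switched on the tag. The 3 Esrrg WT libraries (genotype L10a;Esrrg WT, replicates 2, 3 and 4) had no floxed allele, and in the 2 Esrrg Flox libraries (genotype L10a;Esrrg Flox, replicates 2 and 4) the same Cre also removed exon 2 of Esrrg. Each library came from a pool of several mice, so animals within a library could not be separated.

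Inherited parkinsonism converges on a few cellular tasks that midbrain dopaminergic neurons are known to depend on. PINK1 and DJ-1 (Park7) guard mitochondria and redox balance, LRRK2 phosphorylates RAB GTPases on vesicle membranes, VPS35 is the core of the retromer that returns cargo from endosomes, and ATP13A2 exports polyamines from lysosomes. UCHL1 handles ubiquitin, while synaptojanin 1 (Synj1) and auxilin (Dnajc6) strip the lipid signal and the clathrin coat from newly formed synaptic vesicles. Estrogen-related receptor gamma (ERRγ) activates genes of mitochondrial metabolism together with PGC-1α.

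The libraries held between 20635855 and 23105058 counts assigned to genes, and 3 counts in a library corresponded to at most 0.145 CPM. Esrrg itself had 1763, 1643 and 1726 normalized counts (counts divided by the library's size factor) in WT and 1504 and 1170.1 in Flox. Both Flox libraries were lower, but the difference did not pass (log2 fold change -0.35 with an SE of 0.13, adjusted p = 0.0753 in DESeq2), and because only exon 2 is removed, gene-level counts do not measure the deletion. Dopaminergic transcripts were abundant, with 694 ± 77.6 TPM for Th and 471 ± 13.3 for the dopamine transporter Slc6a3 in WT (SD, n = 3). Transcripts of other cells were present as well. The astrocyte gene Aldoc reached 1595 ± 216 on the same scale and the GABAergic marker Gad1 reached 184 ± 7.37. Calb2, from the same marker list as Gad1, reached 1049 ± 32.7, and which cells it came from was not tested. Aldoc falls outside the naming rule. Summed normalized counts in WT were 74828 to 109197 for 9 astrocyte markers and 110260 to 163134 for 8 oligodendrocyte markers. In both lists the sums overlapped with those in Flox. The levels below are therefore those of the purified RNA as a whole, and fewer cells of a type and less RNA per cell cannot be told apart in it. Among the marker lists, microglial transcripts differed most between the groups. The summed normalized counts of 12 microglial markers were between 1545 and 2931 in WT and 5211 and 11162 in Flox, C1qa and C1qb were at log2 fold changes of 2.28 and 2.01, and 10 of the 12 passed and were higher. The sum of 8 endothelial markers, Cldn5 and Flt1 first among them, was low, at 128 to 288 in WT and 299.7 and 770.4 in Flox. That of 6 GABAergic markers was 44259 to 45031 in WT and 47932 and 50182 in Flox, but the markers did not share a direction, since 2 passed as higher (Calb2 at 0.58 among them), 1 passed as lower, Gad1 was at -0.28 without passing, and the median log2 fold change was -0.13. The sum of 12 dopaminergic markers overlapped (53282 to 62894 and 53937 to 56697), while 10 of the 12 had negative log2 fold changes with a median of -0.17, and 2 passed as lower and 0 as higher in DESeq2 (4 at an unadjusted p under 0.05 and 0 past the threshold in edgeR).

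The 8 genes spanned 3 orders of magnitude in level. TPM values, that is counts per kilobase of annotated exon scaled to the same total in each library, were used to set genes beside each other. Uchl1 was at 2874 ± 66.2 in WT (SD, n = 3) and ranked 20th among 26766 genes with a count. Pink1 followed at 566 ± 14.1 and Park7 at 516 ± 26.8. Atp13a2 was at 117 ± 14.1, Synj1 at 104 ± 6.89 and Dnajc6 at 94.4 ± 11.3, levels whose WT ranges overlapped from one neighbour to the next. Vps35 was at 31.6 ± 1.74. Lrrk2 was the lowest by far at 2.17 ± 0.253, at rank 13249, and Vps35 stood 14.6 times above it. The WT ranges of all other neighbours in this order did not overlap, but over all 5 libraries those of Pink1 and Park7 did. The step from Pink1 to Park7 was 1.10-fold and rested on the length used, because with the longest annotated transcript as length Park7 (1041) lay above Pink1 (485.5).

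**Figure D1:**
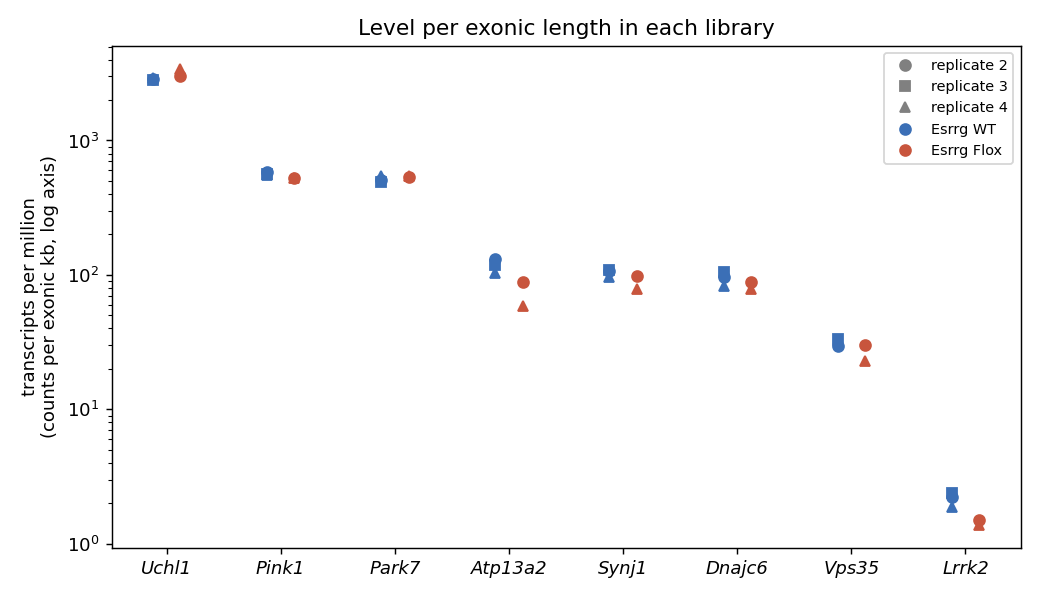
TPM (log axis) of each gene in each library, ordered by the WT mean, with WT in blue, Flox in red and the replicate number given by the marker shape. Uchl1 lies highest in all libraries, at a WT mean of 2874, the trio of Atp13a2, Synj1 and Dnajc6 overlaps, and Lrrk2 lies lowest, at 2.17.

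The main question was whether the deletion of Esrrg moved these genes. Of the 8 genes, 1 passed an adjusted p of 0.05 in DESeq2, namely Atp13a2, which was lower in Flox. Over all tested genes 8.25% passed (4.05% as lower), so 1 of 8 is a share close to the background. None of the 8 passed with a fold change of at least 1.5 required as well, which 3.18% of all tested genes did, and edgeR called 0 of the 8 (3 at an unadjusted p under 0.05) and 1.42% of all genes it tested. In 3 genes the groups did not overlap. Flox was below WT in Atp13a2 and Lrrk2 (22.5% of all tested genes) and above WT in Uchl1 (19.9% of all tested genes), and 42.4% of all tested genes separated in either direction. The same 3 had an unadjusted p under 0.05, against 20.3% of all tested genes. The median log2 fold change was -0.092 over the 8 genes and -0.0063 over all tested genes. In all 8 genes Flox replicate 4 lay farther from the WT mean than Flox replicate 2, though in Lrrk2 by little (-28.3% and -27.4%). The size of most differences thus rested on that library. The share over all tested genes was not computed. Over the genes compared between library pairs, Flox replicate 4 also differed more from each WT library than Flox replicate 2 did. The chi-square per degree of freedom was 39.5 to 45.8, against 11.3 to 26.9.

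**Figure D2:**
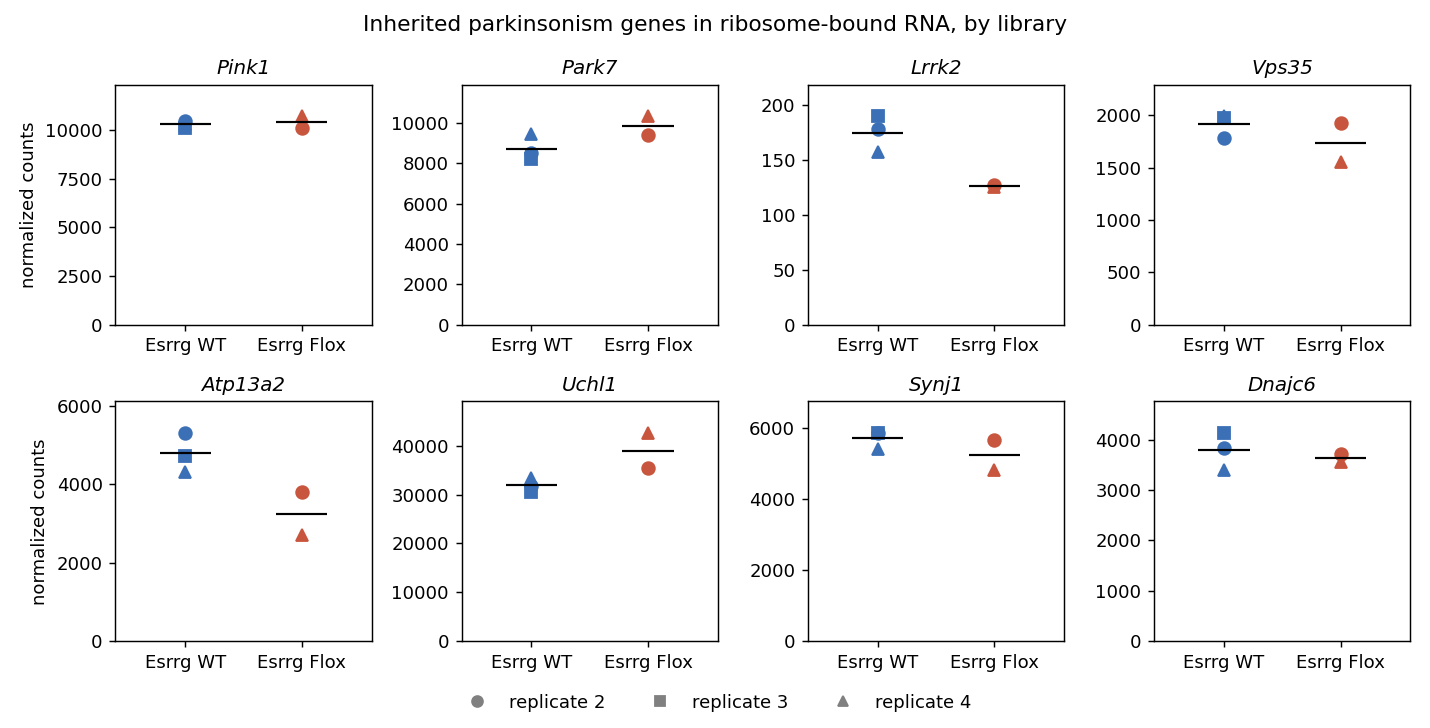
Normalized counts of the 8 genes in the 3 Esrrg WT (blue) and 2 Esrrg Flox (red) libraries, with replicate numbers as marker shapes, horizontal bars for the group means and every axis starting at 0. The groups separate for Atp13a2 (4328 to 5319 against 2704 and 3799), Lrrk2 and Uchl1 and overlap for the other 5 genes.

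Atp13a2 (ENSMUSG00000036622.16, chromosome 4) encodes a P5-type ATPase of the lysosomal membrane that moves polyamines into the cytosol, and its loss causes a juvenile-onset parkinsonism. It had 5319, 4725 and 4328 normalized counts in WT, against 3799 and 2704 in Flox. The Flox libraries were below every WT library, and they stood apart from each other by more than the whole range of WT. The mean fell by 32.1%, from 4791 ± 499 (SD, n = 3) to 3252 ± 775 (SD, n = 2), with a log2 fold change of -0.56 (SE 0.15, 95% interval -0.85 to -0.26, DESeq2 adjusted p = 0.00654). The size was under 1.5-fold. Flox replicate 2 was at -20.7% of the WT mean and Flox replicate 4 at -43.6%. With Flox replicate 4 left out, the value shrank to -0.34, and without Flox replicate 2 it was -0.83. Each of these fits leaves 1 Flox library, so only the size is given. Atp13a2 did not pass without WT replicate 2 (-0.48, DESeq2 adjusted p = 0.116). The quasi-likelihood test of edgeR gave the same size with an adjusted p of 0.0755. Over the alternatives that kept both Flox libraries the adjusted p ran from 0.00147 to 0.116, both in DESeq2.

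None of the other P5-type ATPases of the list passed, and values are given for Atp13a1 and Atp13a3. Atp13a1, which sits in the endoplasmic reticulum, had 383 ± 25.1 normalized counts in WT, against 403 ± 31.2 in Flox, and the 95% interval of its log2 fold change ran from -0.24 to 0.39. Atp13a3, a polyamine transporter of endosomes, had 499 ± 26.6 and 483 ± 31.0, with an interval from -0.33 to 0.24. Whether their changes differ from that of Atp13a2 was not tested.

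The genes of the lysosome that passed were higher, the opposite direction to Atp13a2. Of 29 genes (28 with an adjusted p), 6 passed and all 6 were higher in Flox, where 4.20% of all tested genes were higher, and the median log2 fold change of the list was 0.093. Cathepsin D (Ctsd), an aspartic protease that degrades proteins in lysosomes, had 3913, 3602 and 3394 normalized counts in WT, against 4889.7 and 7457 in Flox (log2 fold change 0.76 with an SE of 0.16, adjusted p = 2.1e-04 in DESeq2). The cholesterol carrier Npc2 was at 0.49 (SE 0.13, DESeq2 adjusted p = 0.00579). Hexa, a hexosaminidase subunit, was at 0.57 (SE 0.15, DESeq2 adjusted p = 0.00603), and progranulin (Grn) at 0.72 (SE 0.19, DESeq2 adjusted p = 0.00690). The remaining genes, Ctsl (0.40) and Psap (0.36), fall outside the naming rule for this list and were named after their values had been seen. These genes are also known from microglia, whose summed markers were at 1545 to 2931 in WT and 5211 and 11162 in Flox, and the part of these cells in the counts was not tested. Without Flox replicate 4, 0 of the 29 passed in DESeq2, and with edgeR 0 passed (10 at an unadjusted p under 0.05).

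Uchl1 (ENSMUSG00000029223.13, chromosome 5) encodes a ubiquitin hydrolase that is among the most abundant proteins of neurons. It had 31787, 30619 and 33405 normalized counts in WT, against 35346 and 42629.6 in Flox. Both Flox libraries lay above every WT library, with replicate 2 only a little above the highest of them. The difference in means was 22.1%, with a log2 fold change of 0.29 (SE 0.11, 95% interval 0.072 to 0.50) that did not pass (DESeq2 adjusted p = 0.0832). It passed without Flox replicate 2 (0.42, DESeq2 adjusted p = 0.0103) and was at 0.14 without Flox replicate 4. Uchl1 is a short transcript, and after the trend on exonic length was removed its value was 0.18 (DESeq2 adjusted p = 0.350). It shares 295 exonic bases with the antisense gene Uchl1os, and reads falling on both were left out of its count.

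Of its relatives, Uchl3 and Uchl5 did not pass. Uchl3, a ubiquitin hydrolase with a similar catalytic fold, was at -0.029 (95% interval -0.30 to 0.24), and Uchl5, a hydrolase bound to the proteasome, at 0.0075 (95% interval -0.22 to 0.24). Of the 8 listed ubiquitin hydrolases and ubiquitin precursor genes, 7 had an adjusted p, 1 passed as higher and 1 as lower. The first was Rps27a, which makes ubiquitin fused to a ribosomal protein, at 0.53 (SE 0.092, DESeq2 adjusted p = 3.0e-06). The second was Bap1, a nuclear deubiquitinase that acts on histone H2A, at -0.35 (SE 0.10, DESeq2 adjusted p = 0.0148). The median of this list was 0.082, and over all tested genes 4.20% passed as higher and 4.05% as lower. Reads of Rps27a may be shared with processed pseudogenes, so its count is uncertain.

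Promoter sequences are shown for these genes, the member that passed and the member with the next smallest p, because the deleted protein is a transcription factor that binds DNA. RefSeq promoters (GRCm38.p6, from 250 bases before to 50 after the start) were at hand for 7 of the 8 genes, 9 promoters in all. Each is written 5′ to 3′ on the strand of the gene, with CpG dinucleotides in capitals. Atp13a2 lies at chr4:140986671-140986970 on the plus strand and Uchl1 at chr5:66675871-66676170 on the plus strand.
Atp13a2: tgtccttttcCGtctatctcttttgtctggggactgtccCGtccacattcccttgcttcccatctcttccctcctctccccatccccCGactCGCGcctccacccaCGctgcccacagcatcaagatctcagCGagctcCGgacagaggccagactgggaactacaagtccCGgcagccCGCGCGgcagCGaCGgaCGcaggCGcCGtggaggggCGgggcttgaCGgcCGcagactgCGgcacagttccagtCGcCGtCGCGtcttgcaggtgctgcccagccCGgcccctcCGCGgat
Uchl1: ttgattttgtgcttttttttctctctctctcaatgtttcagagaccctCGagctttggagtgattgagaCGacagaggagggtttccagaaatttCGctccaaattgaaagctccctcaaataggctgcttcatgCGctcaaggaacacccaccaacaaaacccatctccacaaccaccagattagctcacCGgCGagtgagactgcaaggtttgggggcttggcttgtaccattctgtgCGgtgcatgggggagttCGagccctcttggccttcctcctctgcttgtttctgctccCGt
The Atp13a2 promoter held 28 CpG dinucleotides and the Uchl1 promoter 9, and the median over all 32851 promoters was 7. The ERR response element was searched on both strands as TNAAGGTCA, together with its 7-base core AAGGTCA, which overlaps it, and the lysosomal CLEAR core TCACGTGA. Of the 9 promoters, 0 held any of the 3 motifs, and over all promoters of the same length the shares were 1.28%, 4.72% and 0.974%. These letters are not in these windows, and no statement about binding elsewhere follows.

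Pink1 and Park7 are the mitochondrial members. Pink1 (ENSMUSG00000028756.13, chromosome 4) encodes the kinase that accumulates on damaged mitochondria and marks them for removal. It had 10470.2, 10079.5 and 10324.5 normalized counts in WT, against 10116 and 10711 in Flox. Flox replicate 2 lay within the WT range and Flox replicate 4 a little above it, and Pink1 varied least of the 8 genes between WT libraries (coefficient of variation 1.92%). In TPM, by contrast, both Flox libraries lay below all WT libraries (530 and 524, against 553 to 581). The DESeq2 fit used the scaling of the normalized counts. The log2 fold change was 0.017 with a 95% interval from -0.16 to 0.19 (DESeq2 adjusted p = 0.954), which excludes a change of 1.5-fold in either direction.

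Park7 (ENSMUSG00000028964.15, chromosome 4) encodes DJ-1, a redox-sensitive protein. It had 8499, 8197 and 9448 normalized counts in WT, against 9401 and 10339.8 in Flox. Flox replicate 2 fell inside the WT range and Flox replicate 4 above it. The log2 fold change was 0.18 (SE 0.11, 95% interval -0.029 to 0.39, DESeq2 adjusted p = 0.351).

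Of 36 genes of mitochondrial quality control, 1 passed as higher and 1 as lower, and the median was -0.071. Over all tested genes 4.20% passed as higher and 4.05% as lower. Tomm7, a small subunit of the outer membrane import pore that holds PINK1 in place, had 2682, 3009 and 3060.1 normalized counts in WT, against 3707 and 4198 in Flox (0.44, SE 0.11, DESeq2 adjusted p = 0.00430). Bcl2l13, a receptor for mitophagy, was at -0.63 (SE 0.17, DESeq2 adjusted p = 0.00532). Among 22 genes of redox and glyoxal defence listed beside Park7, thioredoxin (Txn1, 0.49, SE 0.13, DESeq2 adjusted p = 0.00768) and the glutathione peroxidase Gpx1 (0.40, SE 0.11, DESeq2 adjusted p = 0.00613) passed, both higher, and the median was 0.12. Without Flox replicate 4 the median of the redox list was -0.020. Neither Tomm7 nor Bcl2l13 passed in edgeR, where 0 of the 36 did (7 at an unadjusted p under 0.05), and of the 22 redox genes edgeR also called 0 (6 at an unadjusted p under 0.05).

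Lrrk2 (ENSMUSG00000036273.16, chromosome 15) encodes a large kinase whose activating mutations are a common cause of inherited Parkinson disease. It had 178, 189.5 and 157 normalized counts in WT, against 127 and 125 in Flox. Both Flox values were lower than any WT value and lay close together. The mean differed by -27.9% (log2 fold change -0.47, SE 0.22, 95% interval -0.91 to -0.030) and did not pass (DESeq2 adjusted p = 0.203, unadjusted p = 0.0361). The value was between -0.55 and -0.41 when any 1 library was left out. It rests on 126 to 186 raw counts per library, the fewest of the 8 genes, and its interval is the widest. Its relative Lrrk1 was at 34.5 ± 6.73 normalized counts in WT, against 65.4 ± 3.94 in Flox, a log2 fold change of 0.93 that did not pass (SE 0.38, DESeq2 adjusted p = 0.119). Both Flox libraries of Lrrk1 were above all WT libraries.

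Of 24 LRRK2 partners and RAB substrates, 22 had an adjusted p and 1 passed, as lower. This was Spag9, which encodes JIP4, a motor adaptor that binds phosphorylated RAB proteins. It had 4759.9, 4679.5 and 4644 normalized counts in WT, against 3961 and 3695 in Flox (-0.29, SE 0.095, DESeq2 adjusted p = 0.0320). The median of this list was -0.074, and over all tested genes 4.05% passed as lower. In DESeq2, 0 of the 24 passed when any 1 of the 3 WT libraries was left out, with the replicate block or with the length trend removed (7 at an unadjusted p under 0.05 with all libraries), and edgeR called 0 (8 at an unadjusted p under 0.05).

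Vps35 (ENSMUSG00000031696.10, chromosome 8) had 1784, 1975 and 1992 normalized counts in WT, against 1922 and 1556 in Flox. Flox replicate 2 lay within the WT range and only Flox replicate 4 below it. The log2 fold change was -0.14 (SE 0.13, 95% interval -0.39 to 0.11, DESeq2 adjusted p = 0.620), and it was 0.00036 without Flox replicate 4. Vps35 shares 171 exonic bases with Orc6 on the opposite strand, and reads falling on both are in neither count. The partners of VPS35 in the retromer trimer had values of like size, with log2 fold changes of -0.15 for Vps26a, -0.089 for Vps26b and -0.16 for Vps29, none of which passed. In these genes both Flox libraries lay below all WT libraries, as they did in 22.5% of all tested genes. In WT the level of Vps35 was 31.6 ± 1.74 TPM, against 71.5 ± 2.76 for Vps26a, 63.8 ± 1.83 for Vps26b and 68.0 ± 2.83 for Vps29. A list of 22 genes held these partners, sorting nexins, the actin-regulating WASH complex and related genes. Of the 22, 1 passed, namely the WASH subunit Washc2, which was lower (-0.58, SE 0.17, DESeq2 adjusted p = 0.0149). The median was -0.081, and edgeR called 0 (3 at an unadjusted p under 0.05). Over all tested genes 4.05% passed as lower in DESeq2.

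Synj1 and Dnajc6 act in sequence when a vesicle is recovered at the presynaptic terminal. Synj1 (ENSMUSG00000022973.19, chromosome 16) had 5867, 5861 and 5421 normalized counts in WT, against 5659 and 4825 in Flox. The groups overlapped, with a log2 fold change of -0.12 (SE 0.11, 95% interval -0.34 to 0.090, DESeq2 adjusted p = 0.598). Dnajc6 (ENSMUSG00000028528.18, chromosome 4) had 3837, 4138 and 3392 in WT and 3723 and 3554 in Flox, so that both Flox libraries fell inside the WT range. Its log2 fold change was -0.058 (SE 0.12, 95% interval -0.28 to 0.17, DESeq2 adjusted p = 0.860). The intervals of both genes exclude a change of 1.5-fold. Their broadly expressed relatives did not pass either. Synj2 was at -0.28 (95% interval -0.56 to 0.0019, DESeq2 adjusted p = 0.250), and Gak, the auxilin of most tissues, at -0.12 (95% interval -0.38 to 0.14, DESeq2 adjusted p = 0.716).

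**Figure D3:**
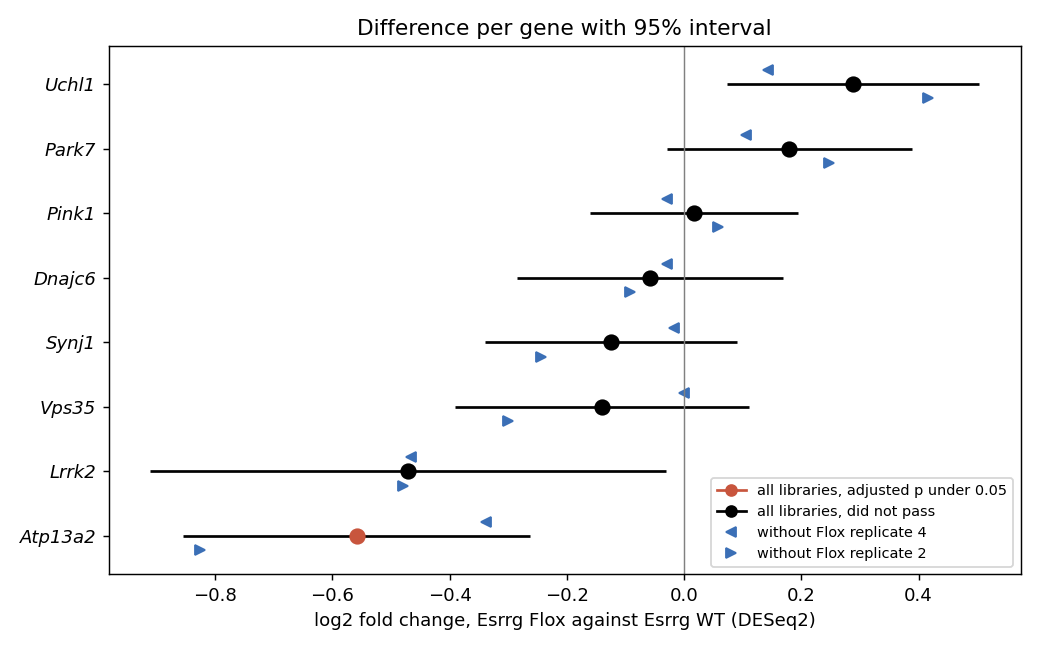
Log2 fold change of Esrrg Flox against Esrrg WT for each gene (circles, red where the adjusted p was under 0.05) with its 95% interval (bars), and the value without Flox replicate 4 or without Flox replicate 2 (blue triangles). Atp13a2 alone passed at -0.56, and its value moved to -0.34 or -0.83 when a Flox library was left out, while both triangles of Lrrk2 lie close to its circle.

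Of 38 listed genes of the coat and uncoating machinery and related enzymes, 9 passed, 8 of them lower and 1 higher. Over all tested genes 4.05% passed as lower and 4.20% as higher, and the median of the list was -0.077. Sacm1l, a phosphoinositide phosphatase with the same SAC domain as synaptojanin, had 506, 436 and 724 normalized counts in WT, against 265 and 175 in Flox (-1.34, SE 0.24, DESeq2 adjusted p = 8.3e-06). Pip5k1c, the kinase that makes the lipid which synaptojanin removes, had 4127, 4046 and 3548 in WT and 2895 and 2290.4 in Flox (-0.59, SE 0.13, DESeq2 adjusted p = 5.2e-04). Subunits of AP-2, the adaptor that links cargo to clathrin, did not share a direction. Ap2a1 was lower (-0.53, SE 0.12, DESeq2 adjusted p = 0.00115) and Ap2s1, the smallest subunit, was higher (0.38, SE 0.094, DESeq2 adjusted p = 0.00253).

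The other 5 that passed fall outside the naming rule and were named after their values had been seen. They were Ap2m1 (-0.57), the vesicle-cutting dynamin Dnm1 (-0.55), Sh3glb2 (-0.42), Itsn1 (-0.34) and Pacsin1 (-0.31). In all 9 genes the groups did not overlap, but the calls were made on the same libraries. The count was 2 without WT replicate 2 and 1 with edgeR (15 at an unadjusted p under 0.05). Without Flox replicate 4, which leaves 1 Flox library, the median was -0.059. After the trend on exonic length was removed, 8 passed and the median was -0.022. In DESeq2 8 also passed with the replicate block, and 10 with TMM library sizes.

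**Figure D4:**
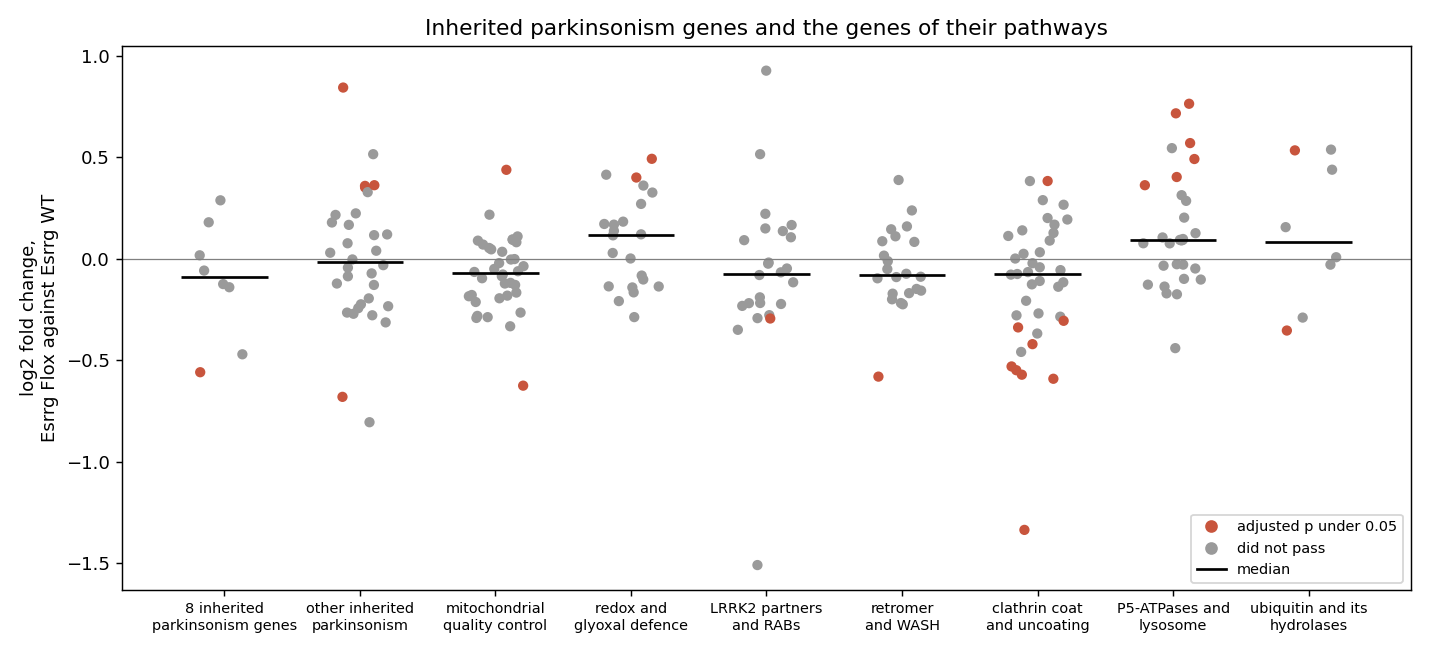
Log2 fold change of Esrrg Flox against Esrrg WT for the 8 genes and for each list of pathway genes, with 1 point per gene, red where the adjusted p was under 0.05, and a bar at the median. The medians lie between -0.092 and 0.12, and the red points fall mostly below 0 among coat and uncoating genes and above 0 among lysosomal genes.

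A list of 32 other genes linked to inherited parkinsonism or related movement disorders had 5 past the threshold, 4 higher and 1 lower, with a median of -0.018. Over all tested genes 4.20% passed as higher and 4.05% as lower. Ftl1, the ferritin light chain that stores iron, had 2723, 2569 and 2157 normalized counts in WT, against 3844 and 5065 in Flox (0.84, SE 0.15, DESeq2 adjusted p = 3.6e-06). Dctn1, the dynactin subunit mutated in Perry syndrome, had 12486, 11012 and 13176 in WT and 8919 and 6337 in Flox (-0.68, SE 0.15, DESeq2 adjusted p = 3.2e-04). Atp6ap2, an accessory protein of the vesicular proton pump, was at 0.36 (SE 0.12, DESeq2 adjusted p = 0.0452) and Psap, the saposin precursor, at 0.36 (SE 0.13, DESeq2 adjusted p = 0.0473). The fifth, the mitochondrial protein gene Chchd2, was at 0.35 (SE 0.12, DESeq2 adjusted p = 0.0473) and was named after its value had been seen. Only Ftl1 of the 32 passed in edgeR (adjusted p = 0.0440). Ferritin genes have many processed copies, so the count of Ftl1 is uncertain.

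For each of the 8 genes, the gene with the most similar course over the 5 libraries was found among 11522 genes with a mean of at least 100 normalized counts, by the root-mean-square distance between centred log2 values. Atp13a2 was nearest to Iqsec1, a guanine nucleotide exchange factor for ARF6 (distance 0.016, log2 fold change -0.59, SE 0.15, DESeq2 adjusted p = 0.00391). Uchl1 was nearest to Bin1 (0.010), Lrrk2 to Slc24a2 (0.033), Pink1 to Ddx6 (0.011) and Park7 to Ggct (0.0077). Vps35 was nearest to Grtp1 (0.017), Synj1 to Crtc1 (0.012) and Dnajc6 to Ppargc1a (0.0072), the gene for PGC-1α. With 5 libraries that share their depth and scaling, close matches are common: 345 genes lay within 0.05 of Pink1 and 146 of Dnajc6, but 10 of Atp13a2 and 5 of Lrrk2.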

How the data were processed

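Per the study's methods, the libraries were poly(A)-selected without strand information, and the authors trimmed the reads, aligned them with STAR and counted them per gene with HTSeq-count. The values used are the deposited counts, unnormalized, 1 column per library. The methods name GRCm38 with GENCODE release M24 and the submitters' processing notes name GRCm39 and STAR 2.7.9a, so no coordinates of the counted genes are given. Reads overlapping more than 1 gene (5.62% to 5.78% per library) are in no gene's count. Of the 53700 IDs, 52147 were named from GENCODE M21, which also gave exonic lengths. The 8 members and all lists were chosen with earlier results of these data known.

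The 29407 genes with at least 1 count were fitted together in DESeq2 1.42.0 (R 4.3.3), the tool of the study's methods, with its default size factors, two-sided Wald test, independent filtering at 0.05 and Benjamini-Hochberg adjustment, and intervals are 95% Wald intervals. edgeR 4.0.16 (quasi-likelihood, TMM) was the first alternative. Both were checked on simulated counts. With 3 against 2 libraries exact permutation of the library labels cannot reach 0.05 for any gene, so it was not used. Nothing states that pools were independent beyond their labels, so p-values measure the spread between these libraries. No pair agreed within counting noise (chi-square per degree of freedom of 4.25 or more). Flox replicate 4 stood farthest from the rest, at 39.5 to 45.8 against the WT libraries and 20.2 against Flox replicate 2. Flox replicate 2 was at 11.3 to 26.9 against WT, and WT pairs were at 4.25 to 16.6. Intervals and floors cover counting error only where they come from counts. Named genes were the members, Esrrg, listed paralogs and partners, up to 4 genes per list with the smallest adjusted p among those that passed (where none passed, the 2 with the highest counts), the nearest gene in pattern, Th, Slc6a3 and the most abundant markers of lists whose libraries separated. Some genes that this rule names are not reported here.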

Additional observations from a re-analysis of the deposited data

How the results depend on the processing

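The call of Atp13a2 as lower did not hold with edgeR or without WT replicate 2, and it held in the other alternatives that kept both Flox libraries. Its direction held in all 11 alternatives. A fit without 1 Flox replicate leaves 1 Flox library, so only its sizes are given. Counts of genes past the threshold were unstable. With edgeR, 0 of the 8 members passed (3 at an unadjusted p under 0.05) and 236 genes in all, with 1 of the other inherited parkinsonism genes, 0 of mitochondrial quality control, 0 of redox defence, 0 of LRRK2 partners, 0 of retromer, 1 of coat and uncoating, 0 of lysosome and 1 of ubiquitin genes. A fold change of at least 1.5 left 0 members and 500 genes. With TMM library sizes 2 of the other inherited genes passed. With the length trend removed there were 3 of these, 1 of mitochondrial quality control, 0 of redox defence, 0 of LRRK2 partners and 2 of retromer, and Dnajc6 was at 0.0010. Of coat and uncoating genes 8 passed in this setting. Leaving out 1 library at a time gave 0 to 2 members (0 without Flox replicate 4 or WT replicate 2, 2 without Flox replicate 2), 72 to 1585 genes in all, and 1 to 6 other inherited, 0 to 4 mitochondrial, 0 to 4 redox, 0 to 0 LRRK2, 0 to 1 retromer, 1 to 10 coat, 0 to 6 lysosomal and 1 to 3 ubiquitin genes. The log2 fold changes then ran from -0.028 (without Flox replicate 4) to 0.057 for Pink1, from -0.30 to 0.00036 (without Flox replicate 4) for Vps35 and from -0.14 to 0.0088 (without WT replicate 3) for Dnajc6. The cause of these shifts was not tested. The GC content alternative was chosen after seeing the data.

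Replicate numbers 2 and 4 occur in both groups, but no label says that they mark a shared batch, and same-numbered libraries deviated together weakly (r of 0.15 and 0.11 over 11522 genes). With the replicate block 476 genes passed in all, with 1 of the other inherited, 1 of the mitochondrial, 1 of the redox, 0 of the LRRK2, 0 of the retromer, 8 of the coat, 1 of the lysosomal and 1 of the ubiquitin genes. Atp13a2 stayed lower (-0.58), and Dnajc6 was at 0.012.

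The levels depend on the length used. With the longest annotated transcript they were 3039 TPM for Uchl1, 485.5 for Pink1, 1041 for Park7, 90.4 for Synj1, 79.9 for Dnajc6 and 42.9 for Vps35 in WT. Depth limits Lrrk2, whose interval is the widest of the 8.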
